A study of Mus musculus with 4 samples.

Results

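The Notch effector genes Hes1, Hes5, Hey1, Hey2, Heyl and Nrarp were followed through the stromal cells of mouse lymph nodes after conditional deletion of Notch2. These 6 genes were taken by their symbols from the 32285 genes measured, and each had 1 row in the count tables. Single cells were profiled in droplets by their 3′ RNA ends, counted as unique molecular identifiers (UMIs), in 4 libraries, 2 per genotype. Notch2 cKO 1 was a pool of 6 mice that carried Ccl19-Cre, Notch2 fl/fl and the R26R-EYFP reporter, and Notch2 cKO 2 was a pool of 3 mice that carried Ccl19-Cre and Notch2 fl/fl. Control 1 was a pool of 6 mice with Ccl19-Cre and R26R-EYFP that were not littermates of the deleted mice. Control 2 was a pool of 3 littermates labelled Notch2 fl/fl, whose title also names Ccl19-Cre. All mice were female, 12 weeks old and on a C57BL/6 background. Axillary, brachial and inguinal nodes were digested, depleted of CD45+ cells and sorted for live CD45- CD31- cells, a gate that removes leukocytes and blood or lymphatic endothelium. The Cre is driven by Ccl19, a chemokine gene of lymph node reticular cells, so deletion depends on a cell's present or past activity of that gene.

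Notch receptors are cut when a neighbouring cell presents a Jagged or Delta-like ligand, and the freed intracellular part joins the DNA-binding protein Rbpj to switch on target genes. Hes1 and Hes5 and the related Hey1, Hey2 and Heyl encode basic helix-loop-helix repressors that are classic direct targets and are often read as a measure of Notch activity. Nrarp encodes a small ankyrin repeat protein that feeds back on the pathway and restrains it. In vessels, Hey and Hes genes are best known from arterial endothelium and from the mural cells, that is pericytes and smooth muscle, which surround it. In lymph nodes, reticular fibroblasts build the scaffold and chemokine fields of the T-cell zone.

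Hes1 (ENSMUSG00000022528) lies on the plus strand of chromosome 16 at 30064384 to 30067796 of the mm10 build. Hey1 (ENSMUSG00000040289) lies on the minus strand of chromosome 3 at 8663359 to 8667256, and Hey2 (ENSMUSG00000019789) on the minus strand of chromosome 10 at 30832359 to 30842801. Heyl (ENSMUSG00000032744) and Hes5 (ENSMUSG00000048001) lie on the plus strand of chromosome 4, at 123233556 to 123249875 and at 154960923 to 154962371. Nrarp (ENSMUSG00000078202) lies on the plus strand of chromosome 2 at 25180758 to 25183339. Hes5 and Nrarp each overlap a non-coding gene on the opposite strand, Gm20421 and Gm38287. The sources used here do not say whether counting used strand, so reads of these 2 overlapping pairs may not be separable.

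The RefSeq promoter set used here (GRCm38.p6, the assembly of mm10) held windows of 250 bases before to 50 after the start for 3 of the 6 members. These were Hey2, Hes5 and Nrarp, and all 3 are shown for that reason alone. Capitals mark the letters GTGGGAA, the sequence Rbpj is known to prefer, or their reverse complement TTCCCAC, which the search also covered. The windows were chr10:30842734-30843033 on the minus strand for Hey2, chr4:154960673-154960972 on the plus strand for Hes5 and chr2:25180508-25180807 on the plus strand for Nrarp.
Hey2: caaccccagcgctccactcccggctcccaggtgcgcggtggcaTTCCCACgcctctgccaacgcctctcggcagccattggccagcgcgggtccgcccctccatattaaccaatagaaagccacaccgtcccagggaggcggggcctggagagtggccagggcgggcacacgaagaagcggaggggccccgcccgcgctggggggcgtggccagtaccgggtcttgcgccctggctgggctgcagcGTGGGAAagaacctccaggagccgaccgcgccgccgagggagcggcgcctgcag
Hes5: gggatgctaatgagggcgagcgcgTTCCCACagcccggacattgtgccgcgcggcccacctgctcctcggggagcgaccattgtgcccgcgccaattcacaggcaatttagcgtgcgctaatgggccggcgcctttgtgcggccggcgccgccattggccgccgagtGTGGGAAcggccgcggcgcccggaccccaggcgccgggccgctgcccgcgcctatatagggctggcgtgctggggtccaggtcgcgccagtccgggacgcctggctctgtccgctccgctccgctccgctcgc
Nrarp: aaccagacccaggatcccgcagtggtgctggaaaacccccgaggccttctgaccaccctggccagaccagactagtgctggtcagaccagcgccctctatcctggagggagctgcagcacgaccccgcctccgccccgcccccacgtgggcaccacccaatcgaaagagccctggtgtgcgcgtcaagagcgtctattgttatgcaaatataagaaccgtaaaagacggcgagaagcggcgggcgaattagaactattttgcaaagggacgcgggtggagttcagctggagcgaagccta
The Hey2 window held 2 matches, 1 in each orientation, and so did the Hes5 window. No match to these letters was in the Nrarp window. Among all 32851 RefSeq promoter windows of 300 bases, 2097 (6.38%) held at least 1 match in either orientation. A match describes letters only.

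The libraries held 8491 and 13452 barcodes with 25644596 and 108144616 UMIs (Notch2 cKO 1 and 2) and 9891 and 18482 barcodes with 21533049 and 119002408 UMIs (control 1 and 2), so batch 2 was the deeper one. After filters on genes, UMIs and mitochondrial counts, 7817 and 12754 cells were kept from the Notch2 cKO libraries and 9053 and 17014 from the controls, and between 21 and 57 barcodes were shared by any pair of libraries. Cells were placed into classes by marker genes counted per 1000 UMIs, with no member among the markers. The fibroblast gate (Dcn, Pdgfra, Col1a1) held 7594 and 10666 Notch2 cKO cells and 8562 and 13791 control cells. T-zone reticular cells (Ccl21a, Il7 and Bst1 at 8 or more per 1000) numbered 3359 and 4593 in Notch2 cKO and 3557 and 3530 in control. Ccl19, a marker not used in that gate, stood at 1223 and 2409 CPM (the gene's UMIs over all UMIs of the class in that library, scaled to the usual fixed total) in Notch2 cKO T-zone cells and at 4801 and 5114 CPM in control T-zone cells, against 81 to 364 in adventitial cells of all 4 libraries. Cxcl9-high reticular cells held more Ccl19 than T-zone cells in each library (1475 and 3496 CPM in Notch2 cKO, 7136 and 5469 CPM in control). So did Stc2 Il13ra2 T-zone cells, and Ccl19 does not set the T-zone class apart from these classes. Notch2 itself stood at 15.3 and 37.3 CPM in Notch2 cKO T-zone cells and at 42.4 and 58.1 in control T-zone cells (log2 -1.09, SE 0.21, edgeR adjusted p = 0.0154). The labels do not say which exons are floxed, so 3′-end counts are no check of the deletion.

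Hes1, the most widely used read-out of the pathway, fell in Notch2 cKO T-zone reticular cells. It stood at 69.6 CPM in Notch2 cKO 1 and 37.7 CPM in Notch2 cKO 2, against 225 CPM in control 1 and 256 CPM in control 2. These levels rest on 821 and 1913 Hes1 UMIs in Notch2 cKO and on 1976 and 8131 in control, and every Notch2 cKO library lay below every control library. The fitted level was 20.5% of control (log2 -2.29, SE 0.30, edgeR quasi-likelihood adjusted p = 0.00166). Within the batches the log2 difference was -1.69 in batch 1 and -2.76 in batch 2. Without the batch term the same contrast gave -2.20 (edgeR adjusted p = 0.535). Fits with any 1 of the 4 libraries left out also had no batch term, and there it lay between -2.80 and -1.80 with no call. The 12 dissociation and immediate early genes of a fixed list (Fos, Jun, Egr1 and others), many of which are induced during tissue digestion, summed to 35647 and 24052 CPM in Notch2 cKO T-zone cells and to 25115 and 25437 CPM in control T-zone cells, and none of the 12 was called. Vascular smooth muscle markers, of which 7 of 7 had UMIs in these cells, summed to 360 and 1001 CPM in Notch2 cKO and to 923 and 1151 CPM in control T-zone cells. The 5 pericyte markers, all with UMIs, summed to 734 and 836 CPM in Notch2 cKO and to 1106 and 1105 CPM in control. The part of these mural markers in the result was not tested. Endothelial markers summed to at most 1.44 CPM in each library.

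**Figure D1:**
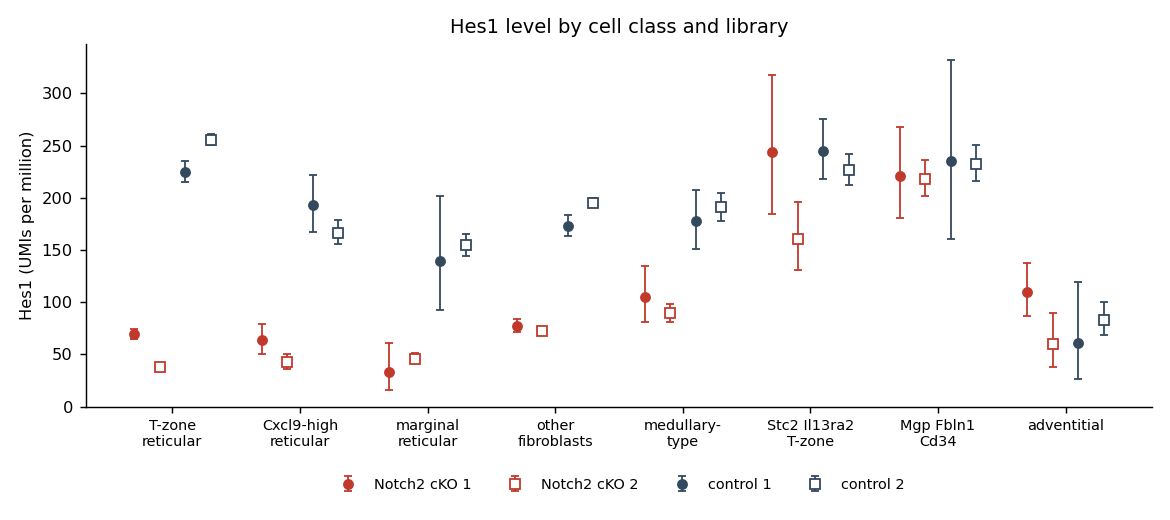
Hes1 level in CPM (vertical axis) in 8 fibroblast classes (horizontal axis), with 1 point per library, Notch2 cKO left of control, and bars for 95% Poisson intervals that cover counting error only. Notch2 cKO points lie below control points in T-zone, Cxcl9-high, marginal, other and medullary-type cells, whereas in Mgp Fbln1 Cd34 cells all 4 libraries lie between 218 and 235.

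Fewer cells with a Hes1 UMI were also seen at equal depth. Such a share falls with the level too, so it cannot tell fewer Hes1 cells from less Hes1 per cell. When 1000 UMIs were drawn from every cell, 6.67% of Notch2 cKO 1 T-zone cells (95% Clopper-Pearson interval 5.85 to 7.57%) and 3.77% of Notch2 cKO 2 cells (3.23 to 4.36%) had a Hes1 UMI. In control 1 and control 2 the shares were 19.1% (17.9 to 20.5%) and 20.6% (19.3 to 22.0%). No cell was shallower than 1000 UMIs, and without thinning the shares were 14.9 and 21.9% in Notch2 cKO and 36.0 and 66.9% in control. Leukocyte-gated cells, set beside them as a background level, had a Hes1 UMI in 2.89% of 242 Notch2 cKO 2 cells and 2.25% of 267 control 2 cells at 1000 UMIs (undrawn median depth 3333 and 3691 UMIs, against 10509 and 8202 in T-zone cells). The Notch2 cKO 2 share in T-zone cells was thus close to this level, and its interval lay within that of the leukocyte-gated cells (1.17 to 5.87%). Whether free RNA, doublets or their own transcripts gave the leukocyte-gated cells these UMIs was not tested. With 2 libraries per group an exact permutation test of these shares cannot go below p = 0.33, so none was made.

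**Figure D2:**
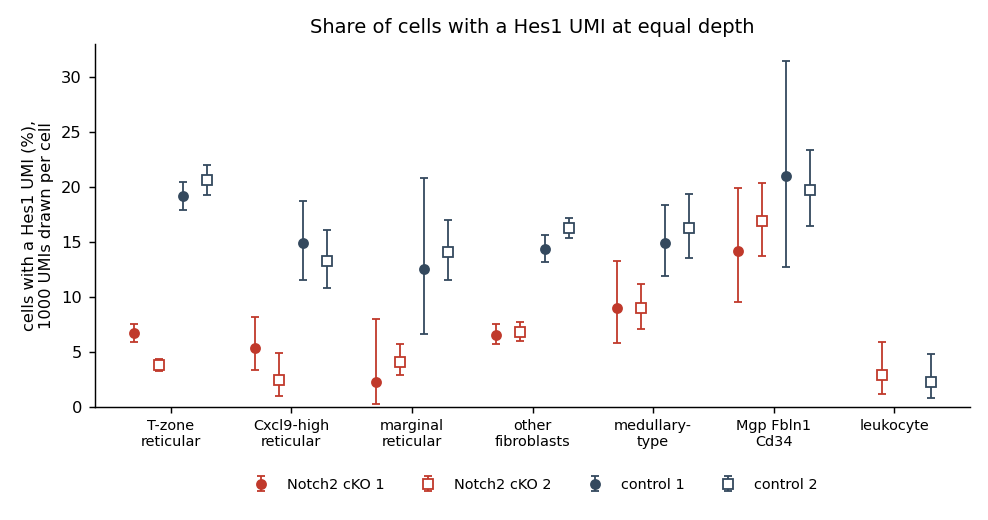
Share of cells with at least 1 Hes1 UMI (vertical axis, percent) after 1000 UMIs were drawn from each cell, by class and library, Notch2 cKO left of control, with 95% Clopper-Pearson intervals. T-zone shares are 6.67 and 3.77% in Notch2 cKO and 19.1 and 20.6% in control, and leukocyte-gated cells of batch 2 (libraries of under 50 cells are left out) stand at 2.89 and 2.25%.

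The Hey genes fell with Hes1 in the T-zone cells. Of the 6 members, 4 were called lower there and none higher, where edgeR called 4.71% of 15088 genes, 2.19% of them lower. Heyl, a Hey family repressor, had 0.593 and 1.64 CPM in Notch2 cKO 1 and 2 (7 and 83 UMIs), against 13.7 and 9.59 CPM in control 1 and 2 (120 and 305 UMIs). Its fitted level was 10.5% of control (log2 -3.25, SE 0.38, edgeR adjusted p = 0.00098), with -4.36 in batch 1 and -2.50 in batch 2. Hey2, the family member best known from arteries and heart, had 4.58 and 2.46 CPM in Notch2 cKO and 20.2 and 10.1 CPM in control (log2 -2.14, SE 0.24, edgeR adjusted p = 0.000762). Its 2 batches gave -2.12 and -2.0 although the control level in batch 1 was about 2 times that in batch 2. Hey1 had 2.88 and 1.93 CPM in Notch2 cKO and 7.98 and 4.87 CPM in control (log2 -1.46, SE 0.29, edgeR adjusted p = 0.0174). For these 3 genes, too, the libraries of the 2 genotypes did not overlap. Left out 1 at a time, the 4 libraries gave -4.29 to -2.95 for Heyl, -2.74 to -1.55 for Hey2 and -1.85 to -1.05 for Hey1, without a call in any of these fits, and Hey1 also lost its call in DESeq2 (adjusted p = 0.144).

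Nrarp and Hes5 were near the limit of detection in these cells. Nrarp, the feedback inhibitor, had 0.509 and 0.473 CPM in Notch2 cKO T-zone cells (6 and 24 UMIs) and 1.03 and 1.16 CPM in control T-zone cells (9 and 37 UMIs), and the difference was not called (log2 -1.28, SE 0.54, edgeR adjusted p = 0.286). Hes5, known mainly from neural progenitors, had 0 UMIs in both Notch2 cKO libraries and in control 1 and 1 UMI in control 2. A count of 0 allows up to 0.254 and 0.0592 CPM in Notch2 cKO 1 and 2 and up to 0.342 CPM in control 1. Over all fibroblasts Hes5 had 2 and 1 UMIs in Notch2 cKO and 1 and 2 UMIs in control, below the filter on low counts, so its response could not be tested.

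**Figure D3:**
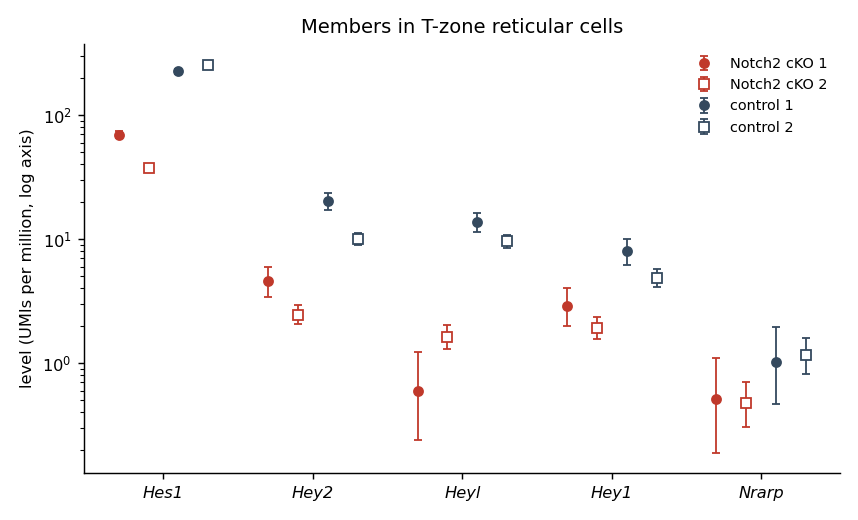
Levels of 5 members in T-zone reticular cells (CPM, log axis) with 1 point per library, Notch2 cKO left of control, and 95% Poisson intervals. For Hes1, Hey2, Heyl and Hey1 every Notch2 cKO point lies below every control point, and Nrarp lies at or below 1.16 in all 4 libraries. Levels of different genes are not compared.

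Over all fibroblasts together 3 members were called lower, where edgeR called 1.73% of 17632 genes, 0.641% of them lower. Hes1 had 78.4 and 57.1 CPM in Notch2 cKO and 200 and 212 CPM in control (log2 -1.67, SE 0.23, edgeR adjusted p = 0.0205). Hey2 fell by 1.77 on the log2 scale (SE 0.25, edgeR adjusted p = 0.0230) and Heyl by 1.82 (SE 0.33, edgeR adjusted p = 0.0441). Hey1 was not called (log2 -1.23, edgeR adjusted p = 0.111), nor was Nrarp (-1.23, 0.415). When T-zone and Stc2 Il13ra2 T-zone cells were removed, an alternative added after the data were seen, the log2 differences were -1.24 for Hes1, -0.81 for Hey2 and -0.93 for Heyl, and none of the 3 was called (edgeR adjusted p = 0.113, 0.596 and 0.395). Hey2 and Heyl also lost their calls without TMM factors (edgeR adjusted p = 0.0557 and 0.113) and without the 10% of cells with most UMIs (0.0609 and 0.110). With single libraries left out, no call remained for the 3 genes and Hes1 lay between -1.98 and -1.39.

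Hes1 fell in 4 of the 8 classes that could be tested, and the other reticular classes resembled the T-zone cells in direction. Several fibroblast gates were passed by 331 and 697 Notch2 cKO cells and by 364 and 745 control cells. Each such cell was placed by the last of its gates in a fixed order. Classes other than T-zone may thus hold cells that also passed the T-zone gate, and their part in this likeness was not tested. In Cxcl9-high reticular cells, which carry interferon-induced genes, Hes1 had 63.9 and 42.8 CPM in Notch2 cKO and 193 and 167 CPM in control (log2 -1.90, SE 0.31, edgeR adjusted p = 4.157e-05, where 3.52% of 10885 genes were called). Heyl was also called there, with 1.58 and 2.96 CPM in Notch2 cKO and 9.64 and 8.89 CPM in control (log2 -2.0, edgeR adjusted p = 0.0415). It lost that call in 11 of the 12 alternatives tried, among them each left-out library. In marginal reticular cells, which line the outer cortex (Tnfsf11, Cxcl13, Hamp2), Hes1 had 33.3 and 46.0 CPM in Notch2 cKO and 139 and 155 CPM in control (log2 -1.92, SE 0.30, edgeR adjusted p = 1.61e-07, where 2.37% of 11510 genes were called). Fibroblasts that passed no finer gate held Hes1 at 77.5 and 72.8 CPM in Notch2 cKO and 173 and 195 CPM in control (log2 -1.36, SE 0.19, edgeR adjusted p = 0.0271, where 1.38% of 15223 genes were called). None of these calls was kept in fits with a library left out, which also had no batch term. Hes1 lay there between -2.24 and -1.55 in Cxcl9-high, -2.18 and -1.78 in marginal and -1.51 and -1.23 in the other fibroblasts. DESeq2 gave an adjusted p of 0.0598 for Hes1 in marginal cells.

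In medullary-type cells (Car3, Inmt, Cyp2f2, Stc1) the Hes1 difference was smaller and was not called. Hes1 had 105 and 89.3 CPM in Notch2 cKO and 177 and 191 CPM in control (log2 -1.07, SE 0.25, edgeR adjusted p = 0.0895, where 0.35% of 11132 genes were called). The Notch2 cKO libraries still lay below both controls. Without the filter on low counts the adjusted p was 0.00855, without TMM factors 0.0188 and with a stricter fibroblast gate, added after the data were seen, 0.00222. Cyp2f2, a gate gene of this class, was itself lower over all Notch2 cKO fibroblasts (log2 -1.25, edgeR adjusted p = 0.0230).

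**Figure D4:**
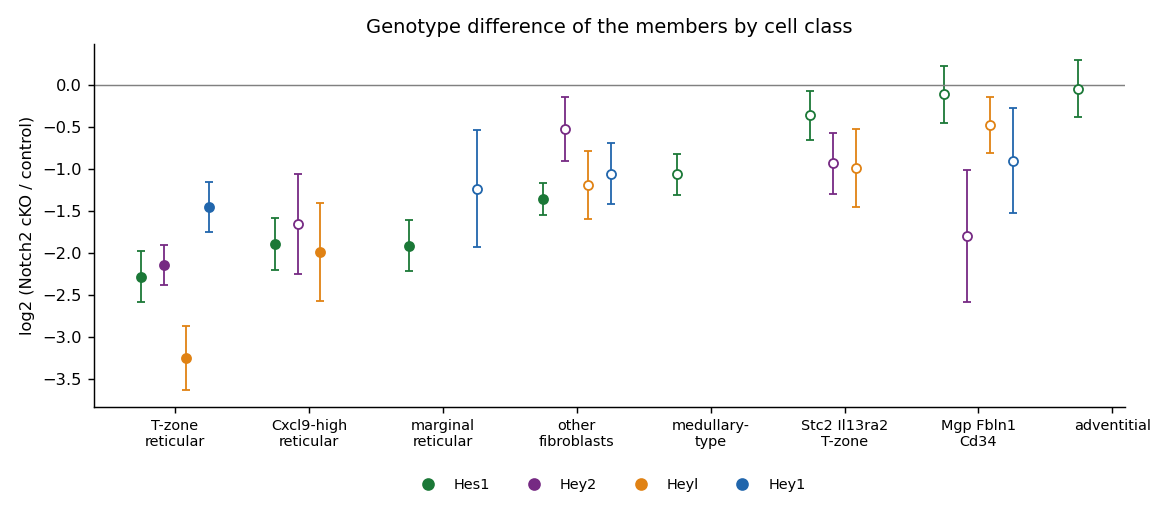
Fitted log2 ratio of Notch2 cKO over control (vertical axis, bars 1 SE) for Hes1, Hey2, Heyl and Hey1 in each class where the gene passed the filter on low counts. Filled points have an edgeR adjusted p under 0.05. Hes1 moves from -2.29 in T-zone cells to -0.12 in Mgp Fbln1 Cd34 cells and -0.05 in adventitial cells.

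In fibroblasts with Mgp, Fbln1, Fmo2 and Cd34 no Hes1 difference was called. They held 221 and 218 CPM in Notch2 cKO (103 and 601 UMIs) and 235 and 233 CPM in control (32 and 732 UMIs), and the log2 difference was -0.12 (SE 0.34, edgeR adjusted p = 1.00, where 0.196% of 10729 genes were called). The difference in genotype effect between these cells and T-zone cells was itself called, at 2.30 on the log2 scale (SE 0.26, edgeR adjusted p = 6.49e-07, where 1.88% of 12847 genes differed). Heyl, which these cells held above the other 7 tested classes in each library, had 51.5 and 67.6 CPM in Notch2 cKO and 80.7 and 84.9 CPM in control. That was log2 -0.48 (SE 0.33, edgeR adjusted p = 1.00), and its genotype effect differed from that in T-zone cells by 2.54 (SE 0.32, edgeR adjusted p = 4.35e-06). Without control 2 the Hes1 and Heyl differences were 2.12 and 3.02 and no longer called (edgeR adjusted p = 0.0534 and 0.0659), and without the library term they were 2.20 and 2.93 and not called. The classes of 1 library share its mice, so these tests rest on 4 libraries. Ccl19 stood at 567 and 582 CPM in Notch2 cKO cells of this class and at 1776 and 629 CPM in control cells, below the T-zone level in each library. Smooth muscle markers, all 7 with UMIs, summed to 440 and 2597 CPM in Notch2 cKO and 609 and 1282 CPM in control cells of the class. The 5 pericyte markers summed to 500 and 609 CPM in Notch2 cKO and 506 and 758 CPM in control, against 4928 to 7538 CPM in pericytes. The part of Ccl19 activity or mural markers in the result was not tested.

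Stc2 Il13ra2 T-zone cells, a subset of the T-zone gate, also showed no called difference in Hes1. Its level was 244 and 161 CPM in Notch2 cKO (55 and 100 UMIs) and 245 and 227 CPM in control (289 and 940 UMIs). The difference was log2 -0.37 (SE 0.29, edgeR adjusted p = 0.878), and edgeR called 0 of 8600 genes there (282 higher and 325 lower at an unadjusted p under 0.05). Hey2 had 26.6 and 16.1 CPM in Notch2 cKO and 48.4 and 28.0 CPM in control (log2 -0.94, SE 0.37, edgeR adjusted p = 0.651). Heyl had 13.3 and 11.3 CPM in Notch2 cKO and 25.5 and 20.0 CPM in control (log2 -0.99, SE 0.47, edgeR adjusted p = 0.730). For Hes1 the genotype effect in these cells differed from that in other T-zone cells by 1.92 (SE 0.27, edgeR adjusted p = 0.00011182, where 0.413% of 12847 genes differed), but not for Heyl (2.07, SE 0.73, edgeR adjusted p = 0.381) or Hey2 (1.22, SE 0.47, edgeR adjusted p = 0.483). Without control 2 the Hes1 difference was 1.75 (edgeR adjusted p = 0.12). The class held 59 and 56 Notch2 cKO cells against 397 and 401 control cells, and both gate genes were themselves lower over all Notch2 cKO fibroblasts (Stc2 by 1.70 and Il13ra2 by 1.85 on the log2 scale, edgeR adjusted p = 0.0108 and 0.00989). The Notch2 cKO cells compared here are therefore those that still pass a gate which responds to genotype.

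Adventitial cells (Pi16, Dpp4, Cd55 and others) showed no called difference either. Hes1 stood at 110 and 59.6 CPM in Notch2 cKO (79 and 23 UMIs) and 60.7 and 83.1 CPM in control (8 and 110 UMIs). The 2 batches differed in sign (log2 0.83 and -0.46), the fitted difference was -0.05 (SE 0.34, edgeR adjusted p = 0.999, where 0.084% of 7147 genes were called), and the genotype effect differed from that in T-zone cells by 2.40 (SE 0.32, edgeR adjusted p = 2.35e-05, where 1.11% of 12847 genes differed). Without control 2 that difference was 2.75 (edgeR adjusted p = 0.105). Smaller departures from the T-zone effect of Hes1 were called in medullary-type cells (1.32, SE 0.25, edgeR adjusted p = 0.00238, where 1.41% of 12847 genes differed) and in the other fibroblasts (0.96, SE 0.23, edgeR adjusted p = 0.0205, where 1.43% differed). Both of these calls were lost without Notch2 cKO 2 (0.98 and 0.59), without control 1 (1.33 and 0.97) and without control 2 (1.22 and 0.92). In the other fibroblasts Hey2 (1.58, SE 0.36, edgeR adjusted p = 0.0140) and Heyl (2.19, SE 0.31, edgeR adjusted p = 4.42e-05) departed in the same direction. Hey2 lost that call without Notch2 cKO 2 (1.16), without control 1 (1.30) and without control 2 (2.19), and Heyl lost it without Notch2 cKO 2 (1.72). No difference from the T-zone effect was called for Hes1 in Cxcl9-high cells (0.43, SE 0.26, edgeR adjusted p = 0.95, where 0.272% of 12847 genes differed) or marginal cells (0.68, SE 0.27, edgeR adjusted p = 0.727, where 0.241% differed). For Hey1 none of the 7 classes differed.

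The classes also differed in the members they held at baseline, in different orders for each gene. The orders cover classes with at least 50 cells in both libraries of a group, which leaves out mural, Schwann and leukocyte-gated cells. Among the control classes so ranked Hes1 was highest in T-zone (240 ± 21.6 CPM, SD, n = 2), Stc2 Il13ra2 T-zone (236 ± 13.1) and Mgp Fbln1 Cd34 cells (234 ± 1.55), whose libraries overlapped. It was lowest in adventitial cells (71.9 ± 15.9 CPM), below every other class so ranked. The other fibroblasts, medullary-type, Cxcl9-high, inflammatory and marginal classes lay between, with means from 184 down to 147 CPM, and each of these overlapped its neighbour among them. Against T-zone cells, Hes1 was called lower in marginal (log2 -0.78, SE 0.19, edgeR adjusted p = 0.00364, where 11.5% of 12847 genes were called) and adventitial control cells (-1.68, SE 0.22, edgeR adjusted p = 3.20e-07, where 31.7% were called), but not in Cxcl9-high cells (-0.40, SE 0.17, edgeR adjusted p = 0.177, where 8.13% were called). Without control 1 or without control 2 the marginal difference was not called (-0.80 and -0.76, edgeR adjusted p = 0.0565 and 0.553).

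Heyl followed another order. Mgp Fbln1 Cd34 control cells held 80.7 and 84.9 CPM, Stc2 Il13ra2 T-zone cells 25.5 and 20.0 CPM and T-zone cells 13.7 and 9.59 CPM, and these classes did not overlap. Further down, the Cxcl9-high, other, medullary-type, inflammatory, adventitial and marginal classes overlapped their neighbours. The Mgp class lay above T-zone cells by 2.83 on the log2 scale (SE 0.20, edgeR adjusted p = 7.92e-13, where 28% of 12847 genes were called) and the Stc2 Il13ra2 class by 1.01 (SE 0.23, edgeR adjusted p = 0.00357, where 8.96% were called). Without control 2 these were 2.37 and 0.92 and not called (edgeR adjusted p = 0.0915 and 0.668). Marginal cells lay below (-2.35, SE 0.42, edgeR adjusted p = 0.000144), with 0 UMIs in control 1 and 12 in control 2, and so did medullary-type cells (-1.28, SE 0.36, edgeR adjusted p = 0.00799, where 23.8% were called). These 2 calls also went without control 2. Within neither class did Heyl pass the filter on low counts, and it entered the fit over all classes through its counts elsewhere. Among the Notch2 cKO classes with at least 50 cells in both libraries the Mgp class was again first, at 59.6 ± 11.4 CPM (SD, n = 2). T-zone cells were among the lowest of them, at 1.12 ± 0.74.

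By its mean level in control fibroblasts, Hey2 came first in the 2 T-zone classes. Stc2 Il13ra2 T-zone control cells held 48.4 and 28.0 CPM and T-zone control cells 20.2 and 10.1 CPM, and within each batch the first lay above the second (log2 1.39, SE 0.21, edgeR adjusted p = 2.56e-05, lost without control 2 at 1.29 with an adjusted p of 0.111). Cxcl9-high control cells held 12.5 and 5.25 CPM, overlapping the T-zone cells, and Mgp Fbln1 Cd34 control cells 7.34 and 6.99 CPM, and neither was called below T-zone cells (log2 -0.84 and -0.86, edgeR adjusted p = 0.0593 and 0.0605). In the control libraries the medullary-type class had 0 and 1 Hey2 UMIs, the marginal class 0 and 4 and the adventitial class 0 and 0, where 0 allows up to 22.7 CPM in control 1 and 2.27 CPM in control 2. The other fibroblasts had 2.31 and 2.21 CPM (log2 -2.51 against T-zone cells, SE 0.22, edgeR adjusted p = 2.34e-10, where 24.2% of 12847 genes were called). Medullary-type and marginal cells were also called below the T-zone cells (edgeR adjusted p = 1.54e-08 and 3.75e-07). Within these 2 classes Hey2 did not pass the filter on low counts, and it entered the fit over all classes through its counts elsewhere. The calls thus add no support beyond the UMIs given above, and without control 2 the marginal call was lost. Hey1 was called lower than in T-zone cells in medullary-type (-1.48, SE 0.44, edgeR adjusted p = 0.0121) and other fibroblasts (-0.87, SE 0.24, edgeR adjusted p = 0.00601) and in no other class. The first of these was lost with stricter gates (-1.22, edgeR adjusted p = 0.127). The second of these was lost without control 1 (-0.68). Within the medullary-type class Hey1, too, did not pass the filter on low counts.

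Among classes with at least 50 cells in a library, mural cells held the highest Hes1 and Nrarp levels. Because batch 1 held only 22 and 5 (Notch2 cKO 1) and 20 and 25 (control 1) pericytes and smooth muscle cells, 1 library per genotype remains and no test was made; intervals are 95% Poisson intervals for counting error only. In batch 2, Nrarp stood at 135 CPM in 407 Notch2 cKO pericytes (118 to 154) and 164 CPM in 630 control pericytes (147 to 182). In smooth muscle cells it stood at 37.7 CPM in Notch2 cKO (28.5 to 49.0) and 54.1 CPM in control (45.3 to 64.2). The 8 tested fibroblast classes lay at or below 4.44 CPM in each library. The small Fabp4 Col15a1 Cd36 fibroblast gate, which was not tested, had 0 Nrarp UMIs in both Notch2 cKO libraries and in control 1, but 11 UMIs in 22 control 2 cells (74.5 CPM, 37.2 to 133), a level above that of smooth muscle with overlapping intervals. Mgp Fbln1 Cd34 cells, which had the most Heyl among the tested classes, held 1, 1, 0 and 2 Nrarp UMIs in Notch2 cKO 1 and 2 and control 1 and 2.

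For the Hey genes the intervals of the 2 genotypes overlapped in mural cells. Heyl stood at 98.4 CPM in Notch2 cKO 2 pericytes (84.0 to 115) and 86.9 CPM in control 2 pericytes (74.9 to 100.2), and in smooth muscle at 26.9 CPM in Notch2 cKO 2 (19.2 to 36.7) and 37.7 CPM in control 2 (30.4 to 46.2). Hey2 stood at 17.9 CPM in Notch2 cKO 2 and 19.4 CPM in control 2 pericytes, and at 20.9 CPM in Notch2 cKO 2 and 19.7 CPM in control 2 smooth muscle cells, with overlapping intervals. Hey1 in pericytes was 14.9 CPM in Notch2 cKO 2 (9.65 to 22.0) and 12.9 CPM in control 2 (8.6 to 18.7), and in smooth muscle it was 4.04 CPM in Notch2 cKO 2 (6 UMIs, 1.48 to 8.79) and 9.02 CPM in control 2 (22 UMIs, 5.65 to 13.7). Hes1 had 287 CPM in Notch2 cKO 2 pericytes (262 to 314) and 339 CPM in control 2 pericytes (315 to 365), and 334 CPM in Notch2 cKO 2 (305 to 365) and 414 CPM in control 2 smooth muscle cells (388 to 440). For Hes1 the Notch2 cKO intervals lay just below those of control in both mural classes. In batch 1 the 22 Notch2 cKO pericytes had 34 Hes1 UMIs (1013 CPM, 702 to 1416) and the 20 control pericytes 9 (368 CPM, 168 to 699), which is the opposite direction. Ccl19 stood at 178 CPM in Notch2 cKO 2 pericytes and 408 CPM in control 2 pericytes.

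**Figure D5:**
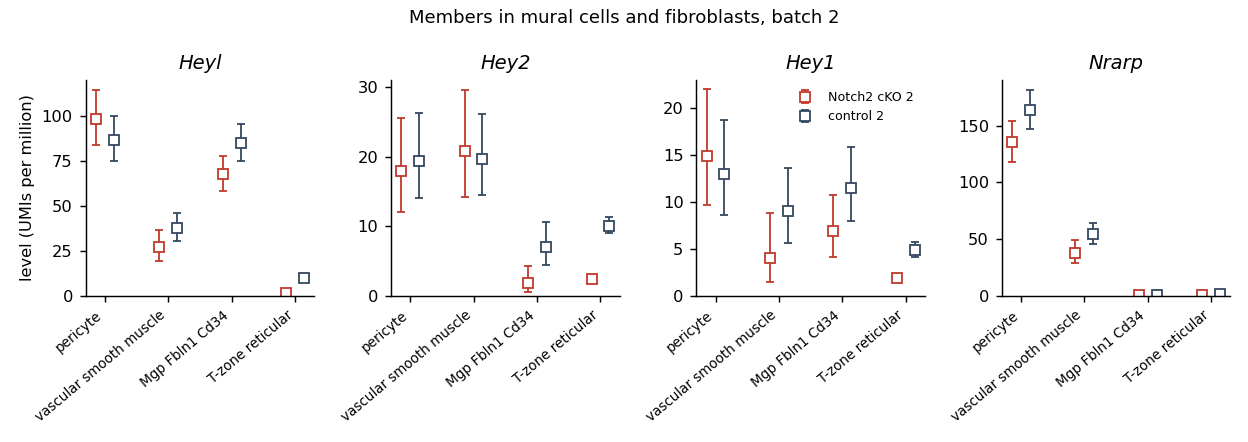
Levels of Heyl, Hey2, Hey1 and Nrarp (CPM, own scale per panel) in 4 cell classes of batch 2, Notch2 cKO 2 left of control 2, with 95% Poisson intervals. Nrarp stands at 135 and 164 in pericytes and near 0 in both fibroblast classes, and Heyl, Hey2 and Hey1 are low in Notch2 cKO T-zone cells but not in Notch2 cKO pericytes.

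Rarer cells were seen in batch 2 as well. Follicular dendritic cells (Cr2, Fcgr2b, Fcer2a, Coch) held Hes1 at 21.0 CPM in 64 Notch2 cKO 2 cells (10.9 to 36.8) and 92.9 CPM in 126 control 2 cells (76.9 to 111). These intervals did not overlap, and with 1 library per genotype the difference has no replicate check. Schwann cells held 155 CPM in 56 Notch2 cKO 2 cells (104 to 221) and 284 CPM in 66 control 2 cells (217 to 365). Leukocyte-gated cells held 31.2 CPM in Notch2 cKO 2 and 27.9 CPM in control 2.

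Within the Notch2 cKO T-zone cells Hes1 was not even. Cells with Cilp, Adamtsl2 and A2m (at least 2 UMIs and 0.5 per 1000), genes of a reticular state that is rare in controls, numbered 2157 and 2278 of the Notch2 cKO T-zone cells against 57 and 47 of the control ones. They held Hes1 at 48.6 and 22.3 CPM in Notch2 cKO 1 and 2, and Notch2 cKO T-zone cells without these genes held 118 and 53.9 CPM. In control cells the same split gave 223 and 234 CPM with the genes and 225 and 256 CPM without them. Heyl in Notch2 cKO 2 stood at 0.770 CPM with the genes (20 UMIs, 0.470 to 1.19) and 2.55 CPM without (63 UMIs, 1.96 to 3.26). In Notch2 cKO 1 it had only 2 UMIs with the genes (0.0294 to 0.877 CPM) and 5 without (0.456 to 3.28 CPM), and these intervals overlapped. Cells counted as without these genes were those below the cutoff, and they may still hold some of these UMIs. In Notch2 cKO such cells were still below both control libraries for Hes1 and Heyl. Splitting by Ptprt, Nlgn1, Cd24a and Sostdc1 gave a narrower spread for Hes1, at 47.1 and 33.3 CPM in Notch2 cKO cells that had them and 73.3 and 39.4 CPM in those that did not. The Hey genes were not so close. In control 2, Heyl stood at 1.31 CPM with the genes (0.356 to 3.35) and 10.5 CPM without (9.32 to 11.7). Hey2 stood there at 2.29 CPM with them (0.919 to 4.71) and 10.9 CPM without (9.75 to 12.2). In control 1 the intervals of these 2 genes overlapped. Hey2 in Notch2 cKO 1 had 0 UMIs with the genes and 5.32 CPM without, and Heyl 1 UMI with them. These subset genes were listed with earlier results of these data known, and the subsets were compared as levels only.

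In the rest of the pathway most calls in T-zone cells fell among receptors and ligands. Outside the members, 63 genes were listed by role, of which 55 passed the filter in T-zone cells and 7 were called, 3 higher and 4 lower. That is a larger share than the 4.71% called over all genes, and the difference in share was not tested. Notch2, the gene deleted by design, is among the 4 lower, and the lists were chosen with earlier results of these data known. The median log2 difference of the 55 genes was 0.07 beside 0.03 over all genes tested. Among the 4 receptors Notch3 fell by 2.78, Notch2 by 1.09 and Notch1 by 0.90 on the log2 scale (edgeR adjusted p = 0.000336, 0.0154 and 0.0237). Among 5 ligands Dll4 rose by 2.04, with 72.6 and 41.7 CPM in Notch2 cKO and 11.1 and 14.1 CPM in control, and Jag1 fell by 0.91 (edgeR adjusted p = 0.00234 and 0.0205). Lfng, a Fringe enzyme that adds sugars to Notch, rose by 1.52 (edgeR adjusted p = 0.0387), with 5.34 and 3.63 CPM in Notch2 cKO and 1.48 and 1.35 CPM in control. Sox9, a transcription factor reported as a Notch target in other tissues, rose by 1.56 (edgeR adjusted p = 0.00362), with 70.6 and 33.3 CPM in Notch2 cKO and 17.5 and 13.8 CPM in control. No tested gene was called among the 8 listed cleavage genes, the 9 nuclear complex genes including Rbpj and the Maml coactivators, the 8 turnover genes, the 6 dimer partners and corepressors or the 7 other Hes-related factors. Over all fibroblasts only Notch3 (-2.05) and Dll4 (1.73) of the 58 tested were called. As for the members, no call was kept in T-zone cells when 1 of the 4 libraries was left out, but those fits also had no batch term. Without that term no call remained there even with all 4 libraries, so the loss cannot be laid to the missing library.

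The genes whose levels ran most like Hes1 over the 45 class-by-library sums with at least 50 cells were Ndrg2 (Pearson r = 0.83), Gng11 (0.78), Rasl12 (0.78), Rab6b (0.77) and Slc9a3r2 (0.74). For Heyl they were Colec11 (0.86), Gucy1b1 (0.82), Ndufa4l2 (0.81), Notch3 (0.80) and Pdgfrb (0.79). Several of the Heyl list, such as Pdgfrb and Gucy1b1, are known from pericytes and smooth muscle. These sums share libraries and depth, and the correlations are descriptions.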

How the data were processed

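Single-cell RNA was sequenced with the 10x Genomics 3′ kit, version 3.1, per the labels' protocols. The authors deposited raw UMI counts per gene and barcode, and per the file headers Cell Ranger was version 5.0.1 for the first batch and 7.1.0 for the second. Only version 5.0.1, with build mm10, appears in the submitters' processing notes. Whether intronic reads were counted is not stated in the labels. Barcodes below 500 genes or 1000 UMIs, or above 10% mitochondrial UMIs, were dropped. No doublet caller was run. Cells that passed a Schwann, epithelial, leukocyte or endothelial gate together with the gate of another lineage were left out (61 and 195 in Notch2 cKO, 38 and 156 in control). Cells that passed the fibroblast gate and a pericyte or smooth muscle gate are not in these counts and were kept among the fibroblasts. Classes were set by marker counts per 1000 UMIs.

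Counts were summed per class and library, since cells are not replicates, and tested with edgeR 4.0.16 in R 4.3.3 (quasi-likelihood test, TMM, filterByExpr, Benjamini-Hochberg over all genes, threshold 0.05), with batch as a block (1 residual degree of freedom). Classes were compared in 1 joint fit over 8 classes with library as a block (14 residual degrees). The labels state the batches, which is where the pairing comes from; as a check, deviations of same-batch libraries from group means correlated at 0.814 in all fibroblasts and 0.816 in T-zone cells. DESeq2 1.42.0 was an alternative. Per-class fits with a library left out had no batch term, whereas joint fits with a library left out kept the library term. On simulated counts with 200 changed genes, edgeR recovered 86% at a log2 change of 1 in T-zone cells, with 12 false calls. The recovered share was not split by gene level, so it cannot speak for members with few UMIs. Within-batch differences used a prior of 2 counts. Intervals (scipy 1.17.1, 95%) and floors (3 counts) cover counting error only. Per-class p-values rest on how far the 2 batches disagree about the genotype difference, with variance information shared across genes. Those of the joint fit rest on the spread of class sums within libraries. Neither measures the spread between the pools of a genotype.

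The members, gene lists and markers were chosen with earlier results of these data known. Named genes were the 6 members in every class, pathway genes that passed in all fibroblasts or T-zone cells, and for Hes1 and Heyl the 5 most correlated genes with a mean of at least 20 CPM.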

Additional observations from a re-analysis of the deposited data

Results flagged for a closer look

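The genotype effect (log2 ratio of Notch2 cKO over control) differed between T-zone reticular cells and other classes for 3 members, by a test of the difference itself in the joint edgeR fit. For Hes1 the effect in Mgp Fbln1 Cd34 cells minus that in T-zone cells was 2.3048 (edgeR adjusted p = 6.49e-07), and in adventitial cells it was 2.4027 (edgeR adjusted p = 2.35e-05). It was 1.9165 in Stc2 Il13ra2 T-zone cells (edgeR adjusted p = 0.000112), 1.3156 in medullary-type cells (edgeR adjusted p = 0.00238) and 0.96274 in the other fibroblasts (edgeR adjusted p = 0.0205). For Heyl it was 2.5359 in Mgp Fbln1 Cd34 cells (edgeR adjusted p = 4.35e-06) and 2.1925 in the other fibroblasts (edgeR adjusted p = 4.42e-05), and for Hey2 1.5847 in the other fibroblasts (edgeR adjusted p = 0.0140). Without control 2, 7 of these 8 were no longer called, all but Heyl in the other fibroblasts, which was lost without Notch2 cKO 2.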

How the results depend on the processing

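Each genotype contrast rests on 2 libraries per group and 1 residual degree of freedom, so the spread is poorly known, and low counts limit Hes5, Nrarp and classes of few cells. Without the replicate block (batch, or library in the joint fit) the calls fell to 0 in all fibroblasts (main 305, edgeR; 264 higher and 183 lower at an unadjusted p under 0.05), 0 in T-zone cells (main 710; 344 and 291), 0 for both the Stc2 Il13ra2 (main 53; 100 and 127) and the Mgp (main 242; 114 and 67) difference from the T-zone effect, and 5 and 646 for the control levels of these classes (main 1151 and 3602). In all fibroblasts DESeq2 called 478 genes, library-size scaling 131, no filter 1056, the set without the 10% of cells with most UMIs 154 and the set without T-zone cells 16; in T-zone cells no filter gave 1355. Leaving out single libraries gave 0 to 22 calls in all fibroblasts, 0 in T-zone cells (187 to 321 genes higher and 173 to 326 lower at an unadjusted p under 0.05), 41 to 1338 and 268 to 3880 for the 2 class levels, and 0 to 61 and 9 to 303 for the 2 differences. In the per-class fits with a library left out the batch term was dropped too, and dropping that term alone already ended the calls. Without TMM factors the Mgp level split was 2760 higher and 1333 lower, against 1785 and 1817. Shares of T-zone cells with a Hes1 UMI were 14.9 and 21.9% in Notch2 cKO and 36.0 and 66.9% in control without thinning, and 10.5 and 6.62% in Notch2 cKO and 32.0 and 32.9% in control at 2000 UMIs.

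Of the 11 member calls between genotypes, 0 were kept without the block (log2 -3.40 to -1.35) and 0 with any 1 library left out, with the sign kept in all; DESeq2 kept 8, library-size scaling 8, no filter 11, stricter cells 10 and stricter gates 10. Signs turned among differences that were not called. Hes1 in adventitial cells gave 0.16 without the block, 0.056 in DESeq2, 0.023 without TMM factors, 0.15 without the cells of most UMIs, 0.0076 with stricter gates, and -0.47 to 0.56 with libraries left out (0.0036 without control 1 and 0.48 without control 2). With libraries left out, Hes1 in Mgp cells ran from -0.21 to 0.0015 (above 0 without Notch2 cKO 2), Nrarp in the other fibroblasts from -2.0 to 0.73 and the Hes1 level of Stc2 Il13ra2 cells from -0.16 to 0.15 (both above 0 without control 2). Differences from the T-zone effect turned without Notch2 cKO 2 for Hes1 (-0.40 to 1.00), Hey2 (-3.81 to 7.58) and Heyl (-2.54 to 7.76) in marginal cells, Hey2 (-1.98 to 7.08) and Heyl (-3.59 to 2.29) in medullary-type cells, Hey1 in Mgp cells (-1.39 to 0.77) and Heyl in adventitial cells (-3.91 to 9.19). They turned without Notch2 cKO 1 for Hey2 in Cxcl9-high (-0.040 to 1.11) and Hey1 in adventitial cells (-5.63 to 1.34). The cause was not tested.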

Other observations

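Fabp4 Col15a1 Cd36 fibroblasts, a gate of 18 and 20 Notch2 cKO cells and 15 and 22 control cells, held Heyl at 58.9 and 58.0 CPM in Notch2 cKO (3 and 9 UMIs) and at 106 and 81.2 CPM in control (4 and 12 UMIs). Inflammatory reticular cells (Ptgs2, Il6, Lif) held Hes1 at 46.6 and 247 CPM in Notch2 cKO (74 and 24 cells) and at 117 and 206 CPM in control (210 and 749 cells). These classes were too small in some libraries to be tested.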
